A study of Mus musculus with 3 samples.

Results

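The genes described here are 35 genes of DNA replication and mitosis, out of 21366 genes that could be named on the arrays. They were taken from a list of names, genes whose products copy DNA, drive the cell cycle or separate chromosomes, by a rule that uses no measured value, although the list was drawn up with earlier results of these data known. All 35 were found, on 48 probes. Retinas of mice at postnatal day 12 were profiled on one-colour Agilent arrays, with 1 wild-type array, 1 array labelled Otx2 KI and 1 array labelled Crx KO. Both names are those of homeodomain transcription factor genes of photoreceptors. KO usually abbreviates knockout, and KI abbreviates knock-in. The labels give no strain, no treatment, no number of pooled animals and no description of either allele.

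A dividing cell first loads the MCM helicase on its DNA and copies the genome under cyclin E, cyclin A and Cdk2. It then enters mitosis under cyclin B and Cdk1 and separates its chromosomes once a spindle checkpoint is satisfied. Many of the genes involved are transcribed in pulses, the replication genes largely through E2F factors and the mitotic genes largely through the DREAM and MYB-FOXM1 complexes. Most retinal cells have left the cell cycle by the second postnatal week, and glia, microglia and vessel cells are among those that may still divide. Several of the genes also act outside division, and cyclin D1 and PCNA are found in cells that do not divide.

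Of 59305 non-control spots per array, the scanner marked 63.5% to 67.1% as well above background and 0 as saturated. The scaled signals of Crx were 9790, 1062 and 7177 in the order wild-type, Otx2 KI, Crx KO, and those of Otx2 were 40886, 63860 and 62981. Since the labels do not say which part of either gene was changed, these probes do not check them, and each array is called by its label. All 10 genes used to check for retina were well above background on each array. A single array stands for each genotype, so nothing was replicated, no test could be run and no p-value is given. Scaled signal means the scanner's processed intensity after each array was set to a common 75th percentile. The error printed with a log2 difference is the scanner software's own error of the 2 signals, which covers the measurement and not the spread between mice. To be measured in a comparison a gene needed a probe well above background on both of its arrays, and it was called higher or lower from 2-fold upwards.

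Most of the cell cycle genes were detected at this age. Of the 35 members 30 were well above background on all 3 arrays, 33 on the wild-type, 32 on the Otx2 KI and 30 on the Crx KO array. Over all named genes the shares well above background were 76.8%, 74.5% and 76.8%. Aurkb, the Aurora kinase of the chromosomal passenger complex, and Cenpf, a large kinetochore protein, were not well above background on any array. Ccne2 was well above background in wild-type only. Kif11 and Top2a were so in wild-type and Otx2 KI.

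**Figure D1:**
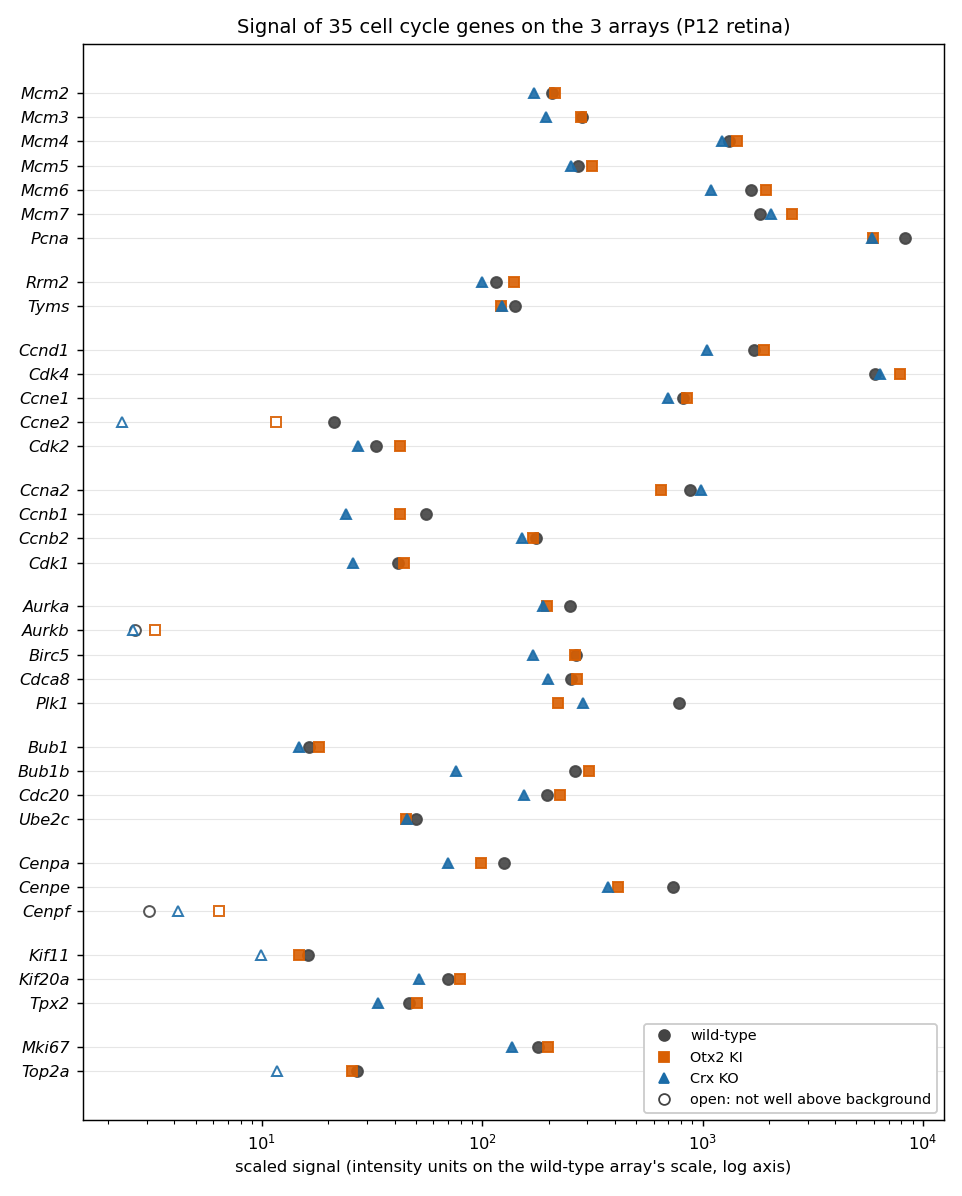
Scaled signal of the 35 genes (intensity units, log axis) on the wild-type (circles), Otx2 KI (squares) and Crx KO (triangles) arrays, 1 array each, in blocks by role. Open symbols are not well above background, and for Plk1 the wild-type point at 779 stands to the right of 221 and 288.

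In Crx KO the members lay below wild-type as a list, most of them by less than 2-fold. Of 30 members measured on both arrays 27 were below the wild-type signal and 3 above it (Mcm7, Cdk4 and Ccna2), against 51.5% of all measured genes below. The median log2 difference of the members was -0.37, beside -0.01 over all 16050 measured genes. Since the members were chosen with such results known, this describes these arrays and is no independent evidence of a direction. Only Bub1b, Plk1 and Ccnb1 were lower by 2-fold or more (3 of 30, against 3.43% of all genes), and 0 were higher (against 1.95%). At 1.5-fold 9 were lower, against 8.25% of all genes. They were Mcm6, Ccnd1, Ccnb1, Cdk1, Birc5, Plk1, Bub1b, Cenpa and Cenpe. At that size 0 were higher, against 5.02%. Mcm3 and Pcna joined these 9 when the rule was a difference over 2 scanner errors, which made 11 of 30, against 12.7% of all genes. By that rule 0 were higher, against 8.35%. In RNA from whole retina, fewer cells of a type and less RNA per cell cannot be told apart.

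Among the 3 members with a dim Crx KO signal, Ccne2 was at least 2.56-fold lower. Top2a was 2.32-fold lower (log2 -1.22 ± 0.41) and Kif11 1.63-fold lower (log2 -0.70 ± 0.42). The dim signals of Top2a and Kif11 lay above the lowest bright signal of that array, so their folds are plain ratios and no minimum. Within 1 error Top2a falls under 2-fold. Counted by these folds 2 of 3 were lower by 2-fold or more, against 17.7% of the 733 genes with 1 of these arrays dim. At that size 0 were higher, against 11.6%. Members that were dim had to be on the lower side to be bounded this way, since all 3 were bright in wild-type. Nothing is read from these shares.

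In Otx2 KI the same genes spread on both sides of wild-type. Of 32 measured members 18 were above and 14 below, against 55.3% of all 15809 measured genes above, and the median was 0.07 beside 0.03. Plk1 alone was lower by 2-fold or more (1 of 32, against 2.53%), and 0 were higher (against 1.35%). Plk1 and Cenpe were lower at 1.5-fold, against 6.35%, and 0 were higher, against 3.66%. Ccne2, dim in Otx2 KI, was the member with 1 of these arrays dim, and it was neither at least 2-fold lower (against 12.2% of such genes) nor higher (against 5.53%). Being bright in wild-type, it could be bounded on the lower side only, so nothing is read from these shares. By more than 2 scanner errors Plk1, Cenpe, Pcna and Ccna2 were lower (4 of 32, against 9.52%) and Mcm7 was higher (1 of 32, against 6.74%). These counts are near those of all genes. Both mutant arrays were set against the same wild-type array, so an error of that array enters both comparisons.

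**Figure D2:**
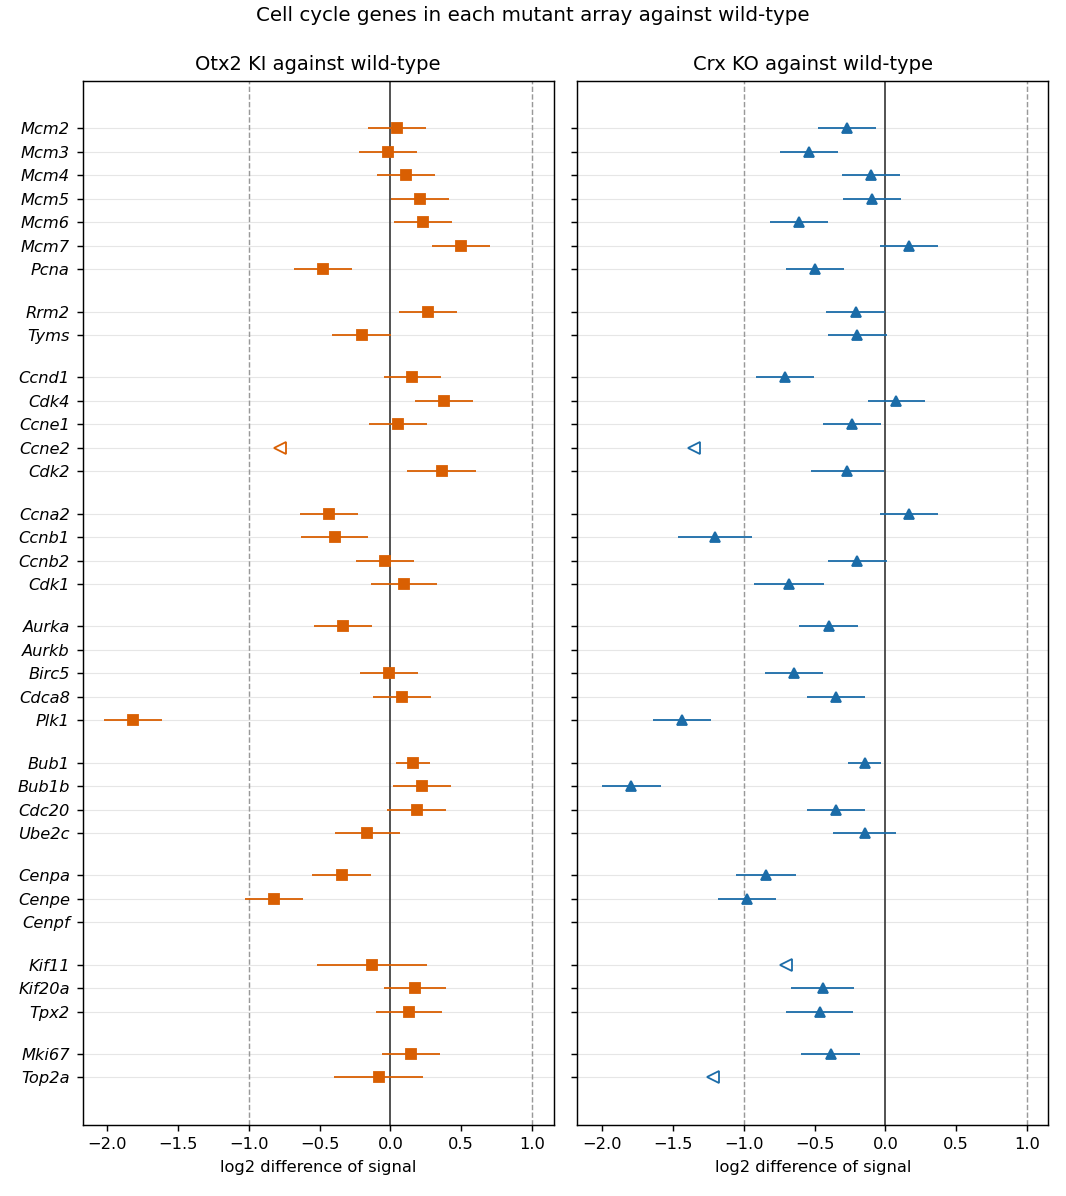
Log2 difference of each member from wild-type in Otx2 KI (left, squares) and Crx KO (right, triangles), with the scanner error of the difference as bars and dashed lines at 2-fold. Open triangles are members that were dim in the mutant array, as bounds for Ccne2 and as plain ratios for Top2a and Kif11. In Crx KO 27 of 30 points lie left of 0, and in Otx2 KI 14 of 32.

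For the members that were lower by 2-fold or more, or at least 2-fold, in Crx KO, the stretch around the start site is shown where a RefSeq window was at hand, because mitotic genes are known to share short elements there. Mcm6 is added as the helicase gene with the largest Crx KO difference. Each window runs 5′ to 3′ in the direction of the gene, from 250 bases before to 50 bases after the start, in build GRCm38.p6. Plk1 is chr7:122159185-122159484 on the + strand and Bub1b is chr2:118597961-118598260 on the + strand. Ccnb1 is chr13:100786437-100786736, Top2a is chr11:99024140-99024439 and Mcm6 is chr1:128359656-128359955, all on the - strand. Capitals mark the CHR element TTTGAA, the CCAAT box CCAAT and the E2F cores TTCCCGC and TTGGCGC, on either strand.
Plk1: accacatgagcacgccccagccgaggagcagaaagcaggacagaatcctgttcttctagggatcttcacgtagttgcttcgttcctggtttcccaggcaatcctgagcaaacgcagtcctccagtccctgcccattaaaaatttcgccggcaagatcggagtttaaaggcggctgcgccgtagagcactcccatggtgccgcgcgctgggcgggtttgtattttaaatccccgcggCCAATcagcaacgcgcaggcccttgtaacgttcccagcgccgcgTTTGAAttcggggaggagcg
Bub1b: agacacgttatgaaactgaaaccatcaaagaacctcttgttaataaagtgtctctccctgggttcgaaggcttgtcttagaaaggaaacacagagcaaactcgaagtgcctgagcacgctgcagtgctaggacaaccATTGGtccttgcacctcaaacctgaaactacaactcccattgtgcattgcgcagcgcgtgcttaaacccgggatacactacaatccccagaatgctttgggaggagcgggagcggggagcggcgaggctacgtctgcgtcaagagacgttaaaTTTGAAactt
Ccnb1: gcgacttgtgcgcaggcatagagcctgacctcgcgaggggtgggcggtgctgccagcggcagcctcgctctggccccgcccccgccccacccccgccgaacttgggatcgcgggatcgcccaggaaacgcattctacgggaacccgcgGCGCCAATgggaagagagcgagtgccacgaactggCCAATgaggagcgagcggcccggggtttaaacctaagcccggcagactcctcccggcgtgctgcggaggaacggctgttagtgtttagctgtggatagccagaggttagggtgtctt
Top2a: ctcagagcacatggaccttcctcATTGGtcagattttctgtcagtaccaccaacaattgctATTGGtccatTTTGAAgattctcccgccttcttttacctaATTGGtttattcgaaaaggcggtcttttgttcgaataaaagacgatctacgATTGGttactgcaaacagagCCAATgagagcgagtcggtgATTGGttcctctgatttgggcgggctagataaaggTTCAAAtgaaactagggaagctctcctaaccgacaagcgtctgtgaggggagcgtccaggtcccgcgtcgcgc
Mcm6: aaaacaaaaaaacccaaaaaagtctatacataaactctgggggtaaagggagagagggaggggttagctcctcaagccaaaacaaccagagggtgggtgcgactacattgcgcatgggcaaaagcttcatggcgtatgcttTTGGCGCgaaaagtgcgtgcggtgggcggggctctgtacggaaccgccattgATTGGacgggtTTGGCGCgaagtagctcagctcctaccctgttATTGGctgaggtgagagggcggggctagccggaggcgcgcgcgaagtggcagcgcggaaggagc

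Plk1 has a CCAAT box that begins 14 bases before the start and a CHR element 30 bases after it. In Bub1b a reversed CCAAT box begins 113 bases before the start and the CHR element 40 bases after it. Top2a holds 2 CHR elements and 6 CCAAT boxes. Ccnb1 holds 2 CCAAT boxes and no TTTGAA in this window, and its E2F match shares bases with the first of those boxes. Mcm6 holds 2 E2F cores and 2 CCAAT boxes and no TTTGAA.

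Windows were found for 28 of the 35 members, 29 windows in all because Mcm7 has 2, and 7 members had none in the table. CHR letters were in 14 of the 29, against 17.9% of all 32851 windows of this length. They were in 13 of the 17 windows of mitotic members and in 1 of the 12 of replication and G1 members. CCAAT was in 25 of the 29 (16 of 17 mitotic), against 37.4% of all windows. An E2F core was in 9 of the 29, of which 6 were among the 12 replication and G1 windows, against 6.81% of all. TAATCC, a core that Crx and Otx2 are known to bind, was searched after the differences were seen and was in 0 of the 29, against 7.06% of all. A match describes letters, and the lack of one says only that these letters are not in this window.

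None of the replication members differed from wild-type by 2-fold on either mutant array. Past 2 scanner errors, Mcm7 was higher and Pcna lower in Otx2 KI, and Mcm3, Mcm6 and Pcna were lower in Crx KO. Mcm2 to Mcm7 encode the subunits of the helicase that opens DNA ahead of the fork. Mcm6 read 1661 in wild-type beside 1945 in Otx2 KI and 1088 for Crx KO. The differences were log2 -0.61 ± 0.20 in Crx KO and 0.23 ± 0.20 in Otx2 KI. Mcm3 read 283, 279 and 195 in the same order, with log2 -0.54 ± 0.21 in Crx KO. Crx KO was thus the low array for both of these subunits, while wild-type and Otx2 KI lay within about 1 error of each other.

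Mcm2 (207, 214 and 172), Mcm4 (1320, 1427 and 1228) and Mcm5 (272, 315 and 254) had the same order of arrays as Mcm6, and their Crx KO differences were -0.27, -0.10 and -0.10 on the log2 scale. Mcm7 departed from that order. It read 1815 in wild-type against 2560 in Otx2 KI and 2038 on the Crx KO array, log2 0.50 ± 0.20 and 0.17 ± 0.20, so that wild-type was its lowest array. Pcna encodes the sliding clamp that holds DNA polymerase on its template. It read 8325 on the wild-type array, 5973 with Otx2 KI and 5909 with Crx KO, which is log2 -0.48 ± 0.20 and -0.49 ± 0.20. For Pcna both mutant arrays were low by almost the same amount. Over these 7 genes the median was 0.11 in Otx2 KI and -0.27 in Crx KO, and 6 of 7 were below 0 in Crx KO.

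Rrm2, the small subunit of ribonucleotide reductase, had signals of 116 in wild-type and 139 with Otx2 KI, and lay at log2 -0.21 ± 0.21 in Crx KO. Tyms, thymidylate synthase, read 140, 122 and 123. Neither gene of nucleotide supply differed from wild-type by 2 errors in either mutant array.

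Of the G1 and S phase regulators, Ccnd1 and Cdk4 go together in one kinase. Ccnd1, cyclin D1, read 1707 in wild-type against 1901 in Otx2 KI and 1045 on the Crx KO array, which is log2 -0.71 ± 0.20 in Crx KO. Cdk4, its kinase partner, read 6045, 7866 and 6381, log2 0.38 ± 0.20 in Otx2 KI and 0.08 ± 0.20 in Crx KO. The cyclin was thus low on the Crx KO array and the kinase was not. The 3 bright Cdk4 probes gave 0.38 to 0.54 in Otx2 KI and 0.08 to 0.26 in Crx KO.

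Ccne1 and Ccne2 encode the E cyclins that activate Cdk2 as S phase begins. Ccne1 read 820 on the wild-type array, 849 with Otx2 KI and 695 with Crx KO. Ccne2 read 21.3 in wild-type and was dim in Otx2 KI (11.6) and Crx KO (2.31), at least 1.72-fold and at least 2.56-fold lower. Cdk2 read 32.8, 42.2 and 27.3, within 2 errors of wild-type on both mutant arrays. The wild-type signal of Ccne2 itself lay close to the background, so its bounds are small.

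Mitotic cyclins lay on both sides of wild-type. Ccnb1, cyclin B1, the partner of Cdk1 at entry into mitosis, read 55.6 in wild-type beside 42.4 in Otx2 KI and 24.2 for Crx KO. It was 2.30-fold lower in Crx KO (log2 -1.20 ± 0.26), and log2 -0.39 ± 0.24 in Otx2 KI. This call rests on 1 probe of low signal. With normexp, a model-based background correction of the spots' unsubtracted signal, the Crx KO value was -0.44. As run, normexp also added the same constant to every spot, which pulls log2 differences of low signals towards 0. With the 3 Ccnb1 probes averaged the Crx KO value was -0.31. The other Ccnb1 probes were not well above background on any array.

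Cdk1, the mitotic kinase itself, read 41.5 in wild-type against 44.3 in Otx2 KI and 25.9 on the Crx KO array. Its log2 difference in Crx KO was -0.68 ± 0.25, which became -0.26 with normexp and -0.17 with its probes averaged. The other Cdk1 probes in that average were not well above background on any array. Ccnb2, cyclin B2, read 175, 170 and 152, within 1 error of wild-type on both mutant arrays. Ccna2, cyclin A2, which acts in S phase and at entry into mitosis, read 880, 651 and 988. It was the member with the opposite order of arrays, log2 -0.44 ± 0.20 in Otx2 KI and 0.17 ± 0.20 in Crx KO.

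Plk1 had the largest difference of any member in Otx2 KI and was low on both mutant arrays. It encodes Polo-like kinase 1, which acts on centrosomes, kinetochores and cytokinesis. Its probe (A_51_P344566) read 779 on the wild-type array, 221 with Otx2 KI and 288 with Crx KO. That is 3.53-fold lower in Otx2 KI (log2 -1.82 ± 0.21) and 2.71-fold lower in Crx KO (log2 -1.44 ± 0.20). Wild-type stood apart from both mutant arrays, which differed from each other by log2 -0.38 ± 0.21. Over the alternatives the Otx2 KI value ran from -1.82 to -1.53 and the Crx KO value from -1.45 to -1.22. Plk1 is measured by this 1 probe only.

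Aurka, the Aurora kinase of centrosomes and spindle poles, read 249 in wild-type beside 198 in Otx2 KI and 189 for Crx KO, under 2 errors from wild-type in each. Birc5 (survivin) and Cdca8 (borealin) sit in the chromosomal passenger complex with Aurora B, whose gene was dim. Birc5 read 266, 263 and 170, log2 -0.65 ± 0.21 in Crx KO, and its other probe that was bright on all 3 arrays gave -0.45 there. In Otx2 KI these Birc5 probes gave -0.01 and -0.49. Cdca8 read 254, 269 and 199, and its 2 probes gave -0.35 and -0.31 in Crx KO. Plk1, Birc5 and Cdca8 were all below wild-type in Crx KO, Cdca8 by less than 2 errors, and in Otx2 KI only Plk1 of the 3 was lower by more than 2 errors.

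Bub1b was the member that set Crx KO apart most. It encodes BubR1, the spindle checkpoint protein that holds back the anaphase-promoting complex until chromosomes are attached. Its only probe (A_51_P490509) read 262 in wild-type against 307 in Otx2 KI and 75.7 on the Crx KO array. It was 3.47-fold lower in Crx KO (log2 -1.79 ± 0.21) and log2 0.23 ± 0.20 in Otx2 KI. The Crx KO value ran from -1.80 to -1.25 over the alternatives. Wild-type and Otx2 KI lay close together and Crx KO far below both.

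Bub1, the related checkpoint kinase, was printed at 10 spots and read 16.3, 18.2 and 14.7, with log2 0.16 ± 0.12 in Otx2 KI and -0.15 ± 0.12 in Crx KO. Its spots had an SD of 0.12, 0.38 and 0.22 on the log2 scale. Bub1 thus did not share the low Crx KO signal of Bub1b. Cdc20, the activator of the anaphase-promoting complex, read 198, 225 and 155, log2 -0.35 ± 0.21 in Crx KO. Ube2c, the ubiquitin-conjugating enzyme of that complex, read 50.2, 44.9 and 45.4, and neither mutant array differed by 1 error.

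Neither of the measured centromere genes passed 2-fold, and both had values below 0 on each mutant array, that of Cenpa in Otx2 KI by less than 2 errors. Cenpe, a kinesin that links kinetochores to microtubules, read 734 on the wild-type array, 415 with Otx2 KI and 373 with Crx KO. Its log2 differences were -0.82 ± 0.20 and -0.98 ± 0.20, the latter 1.97-fold and just inside the 2-fold threshold. Cenpa, the histone H3 variant that marks centromeres, read 126, 99.2 and 70.3, log2 -0.34 ± 0.21 and -0.84 ± 0.21. With normexp the Crx KO values became -0.77 for Cenpe and -0.50 for Cenpa.

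The spindle and chromosome genes had the Crx KO array as their lowest. Kif11, the motor that pushes spindle poles apart, read 16.1 (wild-type) and 14.8 (Otx2 KI) and was dim in Crx KO (9.92). Kif20a, a kinesin of cytokinesis, read 70.0, 79.0 and 51.5, log2 -0.44 ± 0.22 in Crx KO. Tpx2, a spindle assembly factor, read 46.4, 50.7 and 33.7, log2 -0.46 ± 0.24 in Crx KO. That value became -0.20 with normexp and -0.09 with its probes averaged. The other Tpx2 probe in that average was dim in wild-type and Otx2 KI. For these 3 genes wild-type and Otx2 KI differed by less than 1 error.

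Mki67 encodes Ki-67, the common marker of cycling cells, which coats mitotic chromosomes. It read 179 in wild-type beside 198 in Otx2 KI and 137 for Crx KO, log2 0.14 ± 0.21 and -0.39 ± 0.21. Its second bright probe gave -0.72 in Crx KO. Top2a, the topoisomerase that untangles replicated DNA, read 27.1 and 25.6 in wild-type and Otx2 KI and was dim in Crx KO (11.7). Its Crx KO signal was 2.32-fold below wild-type, a plain ratio (log2 -1.22 ± 0.41) and no minimum. Neither gene was more than 1 error away from wild-type in Otx2 KI.

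Probes of 1 gene share the RNA preparation and are no replicates of a genotype, but they show how far a value rests on 1 probe. Of the members 26 have a single probe and 6 have several that were bright on all arrays. In Crx KO the bright probes of a gene differed by 0.03 (Cdca8) to 0.34 (Mki67) on the log2 scale, and in Otx2 KI by 0.03 (Cdca8) to 0.48 (Birc5). All bright probes of a gene lay on the same side of 0 in Crx KO for each of these 6 genes. In Otx2 KI those of Ube2c lay on both sides.

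The low Crx KO values were not limited to dim genes. Among members with a scaled signal under 100 the Crx KO median was -0.45, with 8 of 8 below 0. Between 100 and 1000 it was -0.35, with 15 of 16 below 0, and above 1000 it was -0.30, with 4 of 6. Over all measured genes the medians in these bands were -0.03, -0.01 and -0.00. Under the 6 other scalings, corrections and value sources that kept the filter on dim probes, 27 of 30 members were below 0 in Crx KO, with a median from -0.38 to -0.25, and without that filter 31 of 35 were below 0.

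**Figure D3:**
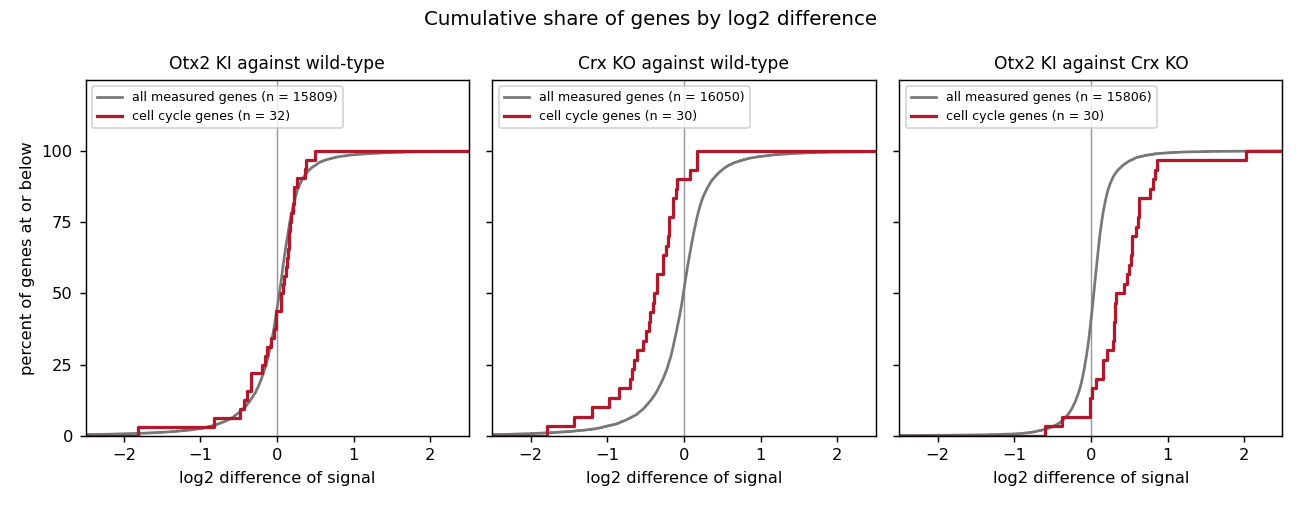
Cumulative percent of genes by log2 difference for all measured genes (grey) and for the cell cycle genes (red) in the 3 comparisons, 1 array per genotype. In Crx KO against wild-type 90% of the 30 members lie below 0, against 51.5% of all genes. In Otx2 KI against wild-type the shares are 43.8% and 44.7%.

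Set directly against each other, Otx2 KI was the higher of the 2 mutant arrays for most members. The Crx KO array is the same one that was set against wild-type, so an error of that array enters both comparisons. Of 30 measured members 26 were higher in Otx2 KI, against 59.7% of all 15806 measured genes, and the median log2 difference was 0.38 beside 0.04. Bub1b alone passed 2-fold, at 4.05-fold higher in Otx2 KI (log2 2.02 ± 0.21; 1 of 30, against 0.677%), and 0 were lower by 2-fold (against 0.645%). Top2a was 2.19-fold higher by the plain ratio of a bright to a dim signal (log2 1.13 ± 0.42), which is no minimum. This put 1 of 2 members with 1 of these arrays dim at 2-fold higher, against 7.53% of such genes. At that size 0 were lower, against 9.32%. Both of these members were bright in Otx2 KI and dim in Crx KO, which fixed the direction, so nothing is read from these shares. At 1.5-fold 9 were higher, against 2.44% of all genes, and Ccna2 was lower (1 of 30, against 2.31%). The next largest were Ccnd1 (log2 0.86 ± 0.20), Mcm6 (0.84 ± 0.20), Ccnb1 (0.81 ± 0.27) and Cdk1 (0.77 ± 0.25). By more than 2 scanner errors 16 were higher, against 4.76%, and Ccna2 was lower, against 3.88%. Ccna2, Plk1, Tyms and Ube2c were the 4 below 0, against 40.3% of all genes. Tyms, Ube2c and Pcna differed by 0.02 or less on the log2 scale.

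Other genes of the pathway, 106 in 5 lists, had a Crx KO median closer to 0 than the members. Of 93 measured genes 58 were below 0 in Crx KO, with a median of -0.12, and 3 lay below wild-type by at least 2-fold, with 0 above it by that much. Over all genes 51.5% were below 0 and 3.43% lower by 2-fold, so the 3 calls are near the share of all genes. In Otx2 KI 44 of 92 were below 0, with a median of 0.01, and the counts at 2-fold were 2 lower and 0 higher, near the 2.53% of all genes that were lower. Whether they differ from the members was not tested.

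The list of 43 further genes of mitosis and cytokinesis held all 5 of these calls. Its median was -0.34 in Crx KO, with 27 of 33 below 0 (all genes 51.5%). In Otx2 KI the median was -0.11, with 20 of 33 below 0 (all genes 44.7%). Pttg1, securin, which keeps sister chromatids together until anaphase, read 5876 in wild-type against 5582 in Otx2 KI and 2522 on the Crx KO array, 2.33-fold lower there (log2 -1.22 ± 0.20, and -1.23 with normexp). Like Bub1b, it was low on the Crx KO array only. Cenpi, a protein of the inner kinetochore, read 105, 52.0 and 44.9, 2.01-fold lower in Otx2 KI and 2.33-fold in Crx KO. Like Plk1 and Cenpe, it was low on both mutant arrays.

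Kif4, a kinesin of mitotic chromosomes, was 2.06-fold lower in Otx2 KI (48.8, 23.7 and 30.5 in the same order). Ckap2, a microtubule protein of the spindle, was 2.05-fold lower in Crx KO (95.8, 64.9 and 46.7). With normexp the called values were under 2-fold for Kif4 (-0.40), for Ckap2 (-0.62) and for Cenpi (-0.58 in Otx2 KI and -0.70 in Crx KO). Nek2, a centrosome kinase, read 22.9 in wild-type and was dim on both mutant arrays, at least 1.85-fold and at least 2.75-fold lower. So Pttg1, the brightest of these called genes, was the call that stood under each correction run. The normexp values had the same constant added to every spot, which pulls log2 differences of low signals towards 0. The calls that fell were of low signal, so this does not rank Pttg1 as the surer call.

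The 28 further genes of replication origins and forks had a median of 0.10 in Otx2 KI and -0.03 in Crx KO, with 16 of 26 below 0 in Crx KO, and 0 passed 2-fold in either direction. That Crx KO median changed sign over the alternatives (-0.05 to 0.02). In the direct comparison 24 of 26 were higher in Otx2 KI (median 0.16), against 59.7% of all measured genes (median 0.04).

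Marker genes of other cells were read beside these results, since dividing cells at this age need not be neurons. All 12 microglia markers were well above background on all arrays. Their summed scaled signal was 12985 on the wild-type array, 13975 with Otx2 KI and 10400 with Crx KO, and their median log2 difference was 0.14 in Otx2 KI and -0.34 in Crx KO, with 10 of 12 below 0 in Crx KO. Crx KO was the lowest of the 3 arrays for this sum, and also for the sum of every other marker list given below except those of Muller glia and astrocytes. Endothelial markers, 10 of 10 bright, summed to 25139, 24127 and 23067, with medians of -0.21 and -0.30. Pericyte markers, 6 of 6 bright, summed to 2955, 2487 and 2248, with medians of -0.25 and -0.48.

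Markers of tissue next to the retina also differed between the arrays. The 11 pigment epithelium and melanocyte markers, of which Best1 was dim on all arrays, summed to 23919 in wild-type beside 12369 in Otx2 KI and 8286 for Crx KO, and their medians were -0.89 and -1.62. Lens markers summed to 1069, 1755 and 777, with medians of 0.63 and -0.68. Mip and Lim2, genes of lens fibres, were dim on every array. Bfsp1 (83.6, 102 and 86.7) and Bfsp2 (332, 402 and 207), also genes of lens fibres, were bright on every array. The lens crystallin gene Cryaa read 106, 334 and 62.5. Of the 12 lens markers 9 were bright on all arrays.

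Retinal progenitor markers, 8 of 10 bright on all arrays and Olig2 dim on each, summed to 5515, 5300 and 5098, with medians of 0.28 in Otx2 KI and 0.09 in Crx KO. Their sums and medians thus differed in direction. Fgf15, a progenitor growth factor, was dim in wild-type and read 21.1 in Otx2 KI and 12.2 in Crx KO. Sfrp2, a secreted Wnt modulator of progenitors, read 120, 287 and 164 and was 2.40-fold higher in Otx2 KI (log2 1.26, and 0.97 with normexp). The list did not go 1 way, as 3 of 8 measured markers were below 0 in Otx2 KI and 4 of 8 in Crx KO. Hes5, a Notch target of progenitors, had log2 differences of -0.20 and -0.16, Neurog2, a neurogenic factor, -0.08 and -0.30, and Nes (nestin) -0.00 and -0.39; these 3 were chosen after their values were seen. Muller glia markers, 9 of 9 bright, summed to 100765, 107227 and 123937, with medians of 0.12 and 0.32. The 3 astrocyte markers summed to 1010, 1244 and 1167, with medians of 0.27 and 0.01. Erythroid and leukocyte markers, 3 of 6 bright on all arrays, summed to 827, 743 and 668, with medians of -0.47 and -0.48 (0.18 in Crx KO without the filter on dim probes). In Crx KO the medians of the microglia, endothelium, pericyte, lens, pigment, and erythroid and leukocyte lists were below 0 like that of the members. That of the 10 genes used to check for retina was below 0 too (-0.12). The progenitor (0.00 to 0.15 over the alternatives), Muller and astrocyte medians were above 0. Over the alternatives the sign changed for the astrocyte list and for the erythroid and leukocyte list. The part of any of these cells in the cell cycle values was not tested.

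**Figure D4:**
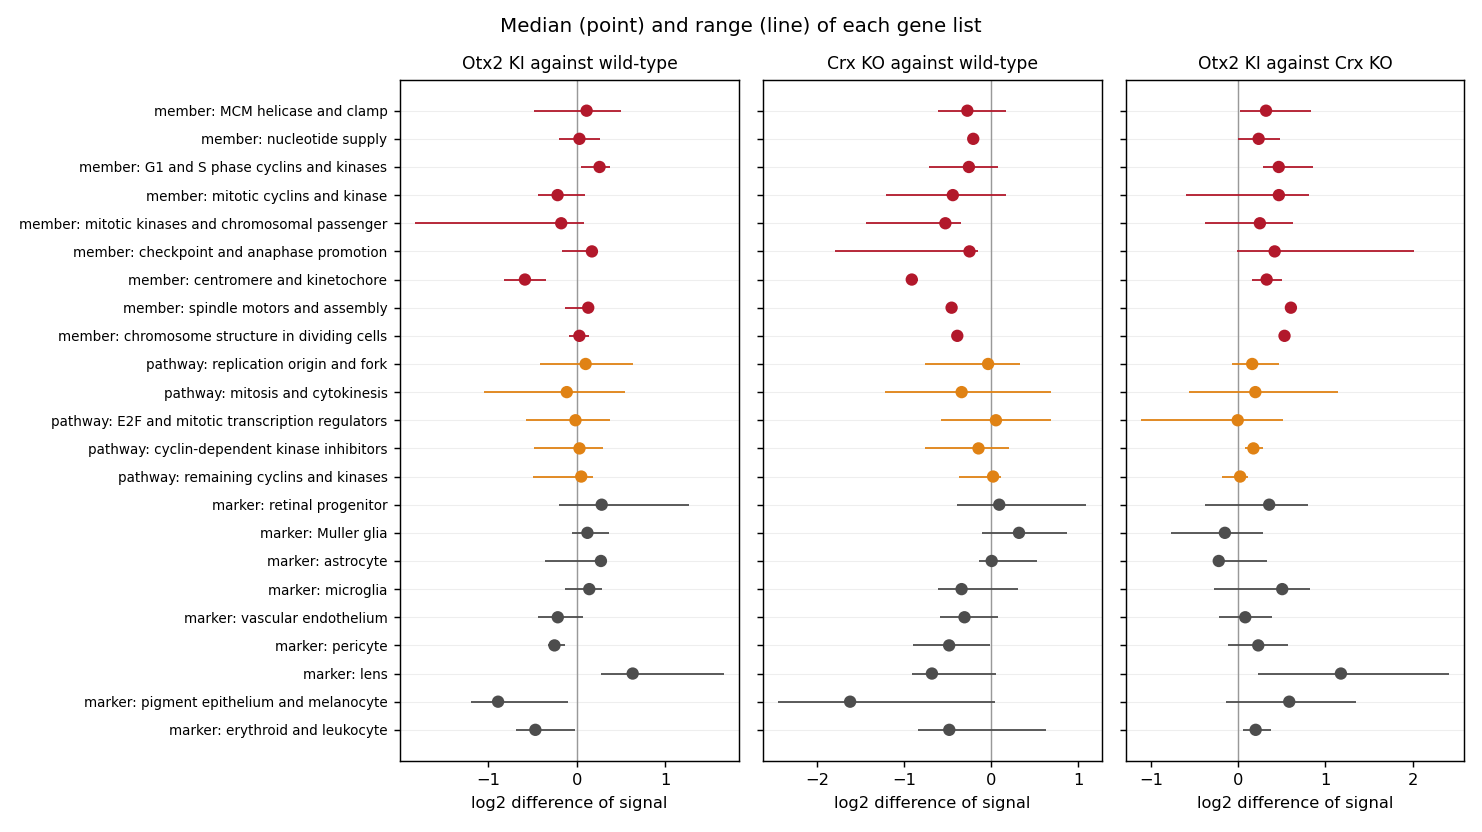
Median (point) and range (line) of the log2 differences of the measured genes of each list: the members by role (red), other lists of the pathway (orange) and marker lists of other cells (grey), in the 3 comparisons. In Crx KO against wild-type the median of every member role lies below 0, that of microglia markers at -0.34 and that of pigment markers at -1.62.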

How the data were processed

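RNA from 3 retina preparations, 1 per genotype named in the labels, was measured on Agilent arrays with the dye Cy3. The deposited scanner files hold intensity values per spot, written by Agilent Feature Extraction 12.0.3.1 per the file headers, and their processed signal had the software's own background subtracted. The arrays shared 1 slide and 1 scan, and genotype and position on it cannot be separated. In the authors' deposited value table the same intensity was multiplied by 1 constant per array (2.49, 2.54 and 2.61), whose origin is unstated. Its columns had medians of 129.8, 125.7 and 135.8.

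Control spots and outlier spots (136, 132 and 126) were left out, spots of a probe were averaged, and log2 signal was reduced by each array's 75th percentile (574, 564 and 570). Accessions were matched to RefSeq genes of GRCm38.p6, which named 28331 of 55681 probes, and promoter windows came from the RefSeq table of that build, while the arrays' design refers to mm9 per the file headers. A gene took its brightest probe. Where 1 array was dim, an at-least fold was taken against the higher of the gene's own signal and the lowest signal well above background there (10.2 for wild-type, 12.4 for Otx2 KI, 8.33 for Crx KO). For a gene whose own dim signal was the higher, this is the plain ratio of its signals and no minimum.

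Genes were called by size alone, beside the share of all genes called by the same rule. Every member could be named, and from other lists up to 4 genes per comparison past 2-fold, at-least folds of 2 or more, and 8 defining markers. Mip, Lim2 and other dim markers, Bfsp1 and Bfsp2, and Crx and Otx2, were added outside that rule. The members and lists were chosen with earlier results of these data known. Alternatives were normexp on the median signal and background, quantile and other scalings, no filter, averaged probes, the value table and 1.5-fold. In normexp the same constant was added to every spot. Python 3.11.15, numpy 2.4.6, pandas 2.3.3, R 4.3.3 and limma 3.58.1 were used. Only the comparison of arrays was tested on simulated data, with changes above the 2-fold threshold and scanner error as the only noise. Scaling and probe naming were not simulated.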

Additional observations from a re-analysis of the deposited data

How the results depend on the processing

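Of 644 member values recomputed under 7 of the 8 alternatives, 624 moved by less than their scanner error or kept their call, 18 moved by more, 2 fell under 2-fold and 0 changed sign as called values. Both that fell under 2-fold were Ccnb1 in Crx KO, with normexp (-0.44) and with probes averaged (-0.31). Median differences of the members moved by less than that error. The members called lower in Crx KO thus lost Ccnb1 in both. Other counts are given only where they changed by a factor above 1.5. Without the filter on dim probes, member calls at 2-fold changed to 1 higher in Otx2 KI and 5 lower in Crx KO. In the direct comparison they changed to 3 higher. At 1.5-fold the member calls were 2 lower in Otx2 KI, 9 lower in Crx KO, and 9 higher and 1 lower in the direct comparison. Over all genes, normexp gave 130 higher in Otx2 KI, 182 higher and 328 lower in Crx KO, and 35 higher and 50 lower in the direct comparison. No filter gave 498 higher and 906 lower in Otx2 KI, 789 and 1075 in Crx KO, and 394 and 581 in the direct comparison. At 1.5-fold the counts were 578 and 1004, 805 and 1324, and 386 and 365. The constant that normexp added to every spot pulls log2 differences of low signals towards 0. How much of the normexp differences came from it was not tested.

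No paired analysis was possible because each genotype has 1 array, and no array could be left out. Scanner errors of the measured members ran from 0.12 to 0.39 on the log2 scale in Otx2 KI, and 5 of 35 members were dim on at least 1 array. Slide position, dissection and genotype cannot be told apart here.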

Other observations

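Genes that regulate the cell cycle were described apart from the members. Of 17 E2F, pocket protein and mitotic transcription regulators 17 were measured in Crx KO, with a median log2 difference of 0.06 and 10 above 0. E2f1, an activator of replication genes, read 120 in wild-type against 150 in Otx2 KI and 125 on the Crx KO array. Foxm1, an activator of mitotic genes, read 40.7, 52.9 and 37.0, and Mybl2, its partner in that task, read 362, 282 and 295. E2f2, a further E2F activator, read 192, 143 and 309. Its Otx2 KI signal was 2.17-fold below that of Crx KO (log2 -1.12 ± 0.21, and -0.89 with normexp), while most members were higher in Otx2 KI. Rb1, the retinoblastoma protein gene, read 2059, 2445 and 2378. Of these only E2f2 falls under the naming rule, and the others were named as the best known genes of the list.

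The 8 inhibitors of cyclin-dependent kinases had medians of 0.03 in Otx2 KI and -0.14 in Crx KO. Cdkn1b (p27), which keeps retinal cells out of the cycle, read 5292, 6070 and 5729, and Cdkn1c (p57) read 3504, 2969 and 2656. In the direct comparison 7 of 7 measured inhibitors were higher in Otx2 KI, against 59.7% of all measured genes. Their differences ran from 0.07 to 0.29 on the log2 scale (median 0.17), and whether they differ from all genes was not tested. The 10 remaining cyclins and kinases had medians of 0.05 and 0.02, and Ccnd3, cyclin D3, read 7028, 5795 and 5579. Atoh7, a progenitor factor of ganglion cells, read 15.1, 24.8 and 32.2 and was 2.14-fold higher in Crx KO (log2 0.27 with normexp).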
